A study of Mus musculus with 2 samples.

Results

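The genes described here are 7 genes that make nitric oxide or handle its substrate arginine: Nos2, Gch1, Slc7a2, Ass1, Asl, Arg1 and Arg2. They were chosen by symbol from the 55536 annotated genes of the gene tables, of which 22028 are protein coding, and all 7 were found in both libraries. The libraries were made from total RNA depleted of ribosomal RNA, taken from nuclei of bone marrow-derived macrophages of C57BL/6J mice. One label field names the nucleus and another the nucleoplasm. Both libraries come from cells given 100 ng/ml Lipid A for 12 h, then kept without it for 12 h, then given 100 ng/ml Lipid A again for 60 min. Lipid A is the membrane anchor of endotoxin and is sensed by the receptor TLR4. The series is 1 group of 2 biological replicates, so it holds no untreated or singly treated cells, and no value below shows an effect of Lipid A. The labels give both replicates the same donor identifier and do not name separate animals, so differences between them may be technical. Age and sex were not recorded.

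Nos2 encodes the inducible nitric oxide synthase, which turns arginine into nitric oxide and citrulline and is a classical product of macrophages activated through TLR4. The enzyme needs tetrahydrobiopterin, whose synthesis starts with GTP cyclohydrolase 1 (Gch1), and arginine that enters the cell through cationic amino acid transporters such as the one encoded by Slc7a2. Argininosuccinate synthase (Ass1) and argininosuccinate lyase (Asl) rebuild arginine from citrulline, while the cytosolic arginase Arg1 and the mitochondrial arginase Arg2 split arginine into ornithine and urea, and Arg1 is a classical product of alternatively activated macrophages.

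In these nuclei Gch1 RNA was the most abundant of the 7, at 44.9 TPM in replicate 1 and 26.5 TPM in replicate 2 (TPM is the number of transcripts, corrected for length, scaled to a fixed total in each library). Nos2, Asl, Ass1 and Slc7a2 lay between 1.67 and 7.18 TPM, and Arg2 and Arg1 were below 1 TPM in both libraries. About as many of the counts of Gch1 were assigned to a transcript that keeps intron sequence as to the spliced messenger RNA.

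A total of 23630328 expected counts fell on annotated genes in replicate 1 and 15687634 in replicate 2; 1 µg of RNA went into the former and 500 ng into the latter, so input and replicate cannot be told apart. All 8 macrophage markers examined were at 10 TPM or more in both libraries (Lyz2 2211 and 1413 TPM, Adgre1 996 and 491 TPM). In RSEM no marker of the other classes reached 1 TPM in both: 0 of 6 for neutrophils (summed level 1.79 and 0.6 TPM; Elane at 0), 0 of 5 for T and B lymphocytes (0.12 and 0.11 TPM; Cd3e at 0), 0 of 5 for endothelial cells and fibroblasts (2.07 and 1.1 TPM) and 0 of 3 for hepatocytes, which also express Arg1, Ass1 and Asl. The hepatocyte genes Alb, Apoa1 and Ttr were all listed at 0 there. In the second quantifier, kallisto, the endothelial marker Pecam1 stood at 1.59 and 5.29 TPM and the T cell marker Cd3d at 0.920 and 3.31 TPM. The part of such cells in the values below was not tested. TPM was lower in replicate 2 for the typical gene: the median log2 ratio of replicate 2 to replicate 1 was -0.47 over nuclear-encoded protein-coding genes of 1 TPM or more. Ratios between the libraries are therefore given below on counts normalised by TMM, a scaling that sets the typical gene to no difference.

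Sequence is shown first for the 2 genes whose transcripts differ in a way that the results turn on. Gch1 lies on the minus strand of chr14:47153895-47189413 (mm10). Its spliced transcript Gch1-201 has 6 exons, and the other annotated transcript, Gch1-202, is a single exon of 3508 bases at chr14:47158365-47161872. Exon 4 of Gch1-201, 32 coding bases at chr14:47158863-47158894, lies inside Gch1-202 and makes up 0.912% of it; the other 3476 bases are intron sequence of Gch1-201. Both stretches below are GENCODE M21 transcript sequences, read 5′ to 3′ on the minus strand with 60 bases on each side of exon 4, which is in capitals. The first spans chr14:47158803-47158954 and the second joins exons.
Gch1-202 around exon 4: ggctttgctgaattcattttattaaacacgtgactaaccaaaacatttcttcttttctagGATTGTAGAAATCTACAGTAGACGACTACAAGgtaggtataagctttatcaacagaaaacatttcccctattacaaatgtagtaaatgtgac
Gch1-201 around exon 4: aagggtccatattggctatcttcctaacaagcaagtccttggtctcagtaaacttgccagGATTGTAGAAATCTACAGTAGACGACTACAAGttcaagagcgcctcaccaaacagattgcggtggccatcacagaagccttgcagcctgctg
The capitals are the same in both and the flanks are not: in Gch1-202 the exon is bordered by intron bases, ending in ag before it and starting with gt after it. A read that lies wholly in the flanks of the first stretch can come from Gch1-202 or from unspliced precursor RNA, but not from the spliced messenger RNA.

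Slc7a2 lies on the plus strand of chr8:40862396-40922308. It is known to make the transporters CAT-2A and CAT-2B by use of one or the other of a pair of mutually exclusive coding exons. In the annotation an exon of 140 bases at chr8:40908056-40908195 belongs to Slc7a2-202 and Slc7a2-203, and one of 137 bases at chr8:40908398-40908534 belongs to Slc7a2-201 and Slc7a2-204. The sequences give a sense of how far a read can tell them apart. They are from GENCODE M21, read 5′ to 3′ on the plus strand, with capitals marking bases that differ between them in a global alignment or have no partner there.
Slc7a2 exon of 140 bases: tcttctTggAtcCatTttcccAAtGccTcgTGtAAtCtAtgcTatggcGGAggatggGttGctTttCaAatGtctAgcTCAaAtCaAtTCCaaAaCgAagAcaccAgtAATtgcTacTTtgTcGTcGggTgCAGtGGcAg
Slc7a2 exon of 137 bases: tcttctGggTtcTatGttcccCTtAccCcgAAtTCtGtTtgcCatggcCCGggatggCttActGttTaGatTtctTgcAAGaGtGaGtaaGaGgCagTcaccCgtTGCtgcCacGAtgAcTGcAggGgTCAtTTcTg
The exons were identical at 84 of 140 aligned columns (60%), with differences along nearly the whole length. The map of transcript structures shows where both pairs of alternatives lie.

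**Figure D1:**
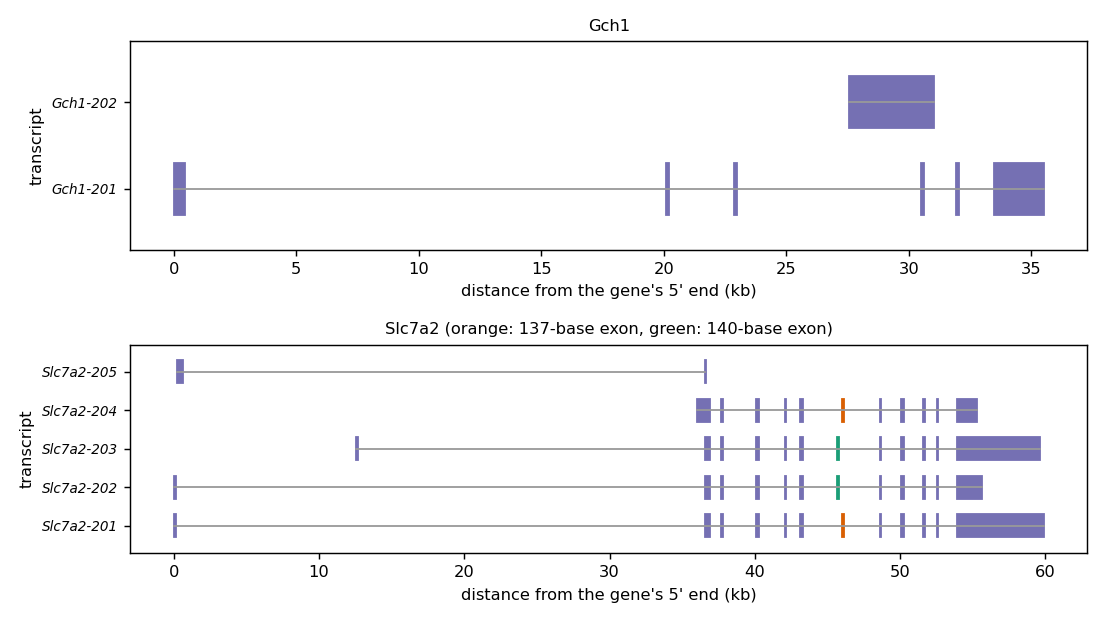
Annotated transcripts of Gch1 (top) and Slc7a2 (bottom), with exons as boxes and introns as lines; the x axis is the distance from the gene's 5′ end in kb, and exons too short to see are drawn at a fixed least width. Gch1-202 is 1 unbroken box of 3508 bases across the place of exon 4 of Gch1-201, and the 137-base and 140-base exons of Slc7a2 never occur in the same transcript.

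Levels are described first for the gene that makes nitric oxide. Nos2 (ENSMUSG00000020826.8, chr11:78920787-78960254, plus strand) stood at 7.18 TPM in replicate 1, with a deposited interval of 6.51 to 7.64 TPM whose level is not stated. In replicate 2 it stood at 2.77 TPM, with an interval of 2.43 to 3.36 TPM, so the intervals did not overlap. These values rest on 753 and 260 expected counts, or 31.9 CPM (counts scaled to a fixed total; 95% Wilson interval 29.7 to 34.2) and 16.6 CPM (14.7 to 18.7). Among the 22028 protein-coding genes Nos2 ranked 5032nd and 6687th by TPM. Kallisto gave 4.14 and 3.74 TPM. Nos2 RNA was thus detected in both nuclear preparations, at a higher level in replicate 1 by both quantifiers, though by less in kallisto. On TMM-normalised counts its log2 ratio of replicate 2 to replicate 1 was -0.92 in RSEM and -0.77 in kallisto.

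Gch1 (ENSMUSG00000037580.10), which supplies the cofactor, had 44.9 and 26.5 TPM from 3384 and 1799 expected counts, and ranked 1166th and 1361st. Its deposited intervals, 41.6 to 44.5 TPM and 24.1 to 26.5 TPM, did not overlap between the libraries; they surround the posterior means of 43.0 and 25.3 TPM, and the point estimate of replicate 1 lies just above its interval. Gch1 was 6.26 times Nos2 in replicate 1 and 9.56 times in replicate 2, a mean difference of 2.92 ± 0.41 (SD, n = 2) in log2(TPM + 0.1). Kallisto gave Gch1 14.4 TPM in replicate 1 and 15.5 TPM in replicate 2, a lower level than RSEM and with replicate 2 the higher. On TMM-normalised counts, however, the log2 ratio of replicate 2 to replicate 1 was -0.30 in RSEM and -0.40 in kallisto. Both quantifiers thus placed replicate 1 higher once the libraries were scaled. The ratios of Gch1 to Nos2 were 3.47 and 4.15 in kallisto. Both libraries and both quantifiers placed Gch1 above Nos2. The same held for the spliced transcript alone: Gch1-201 had 26.8 and 14.9 TPM, 3.74 and 5.38 times the level of Nos2 (2.10 and 2.29 times in kallisto).

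Slc7a2 (ENSMUSG00000031596.15), the arginine transporter gene, stood at 2.57 TPM in replicate 1 and at 2.01 TPM in the other library. The deposited intervals of 2.31 to 3.96 TPM and 1.82 to 3.35 TPM overlapped. Each comes from a single library, so the overlap does not show that the libraries were alike. On TMM-normalised counts the log2 ratio of replicate 2 to replicate 1 was 0.12 in RSEM and -0.08 in kallisto. Slc7a2 drew 412 and 293 expected counts. Of its 31-base words, 8.78% (800 of 9110) also occur, in either orientation, in 1 or more of 4450 other genes. The largest share, 6.38%, lies in reverse complement in the antisense non-coding RNA gene Gm26584, which had 400 and 237 expected counts. Since the use of strand in counting is not given in the sources used here, reads there cannot be told apart.

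Of the pair that rebuilds arginine from citrulline, Ass1 (ENSMUSG00000076441.9, chr2:31470207-31520672, plus strand) had 4.47 and 1.67 TPM, with intervals of 3.79 to 5.83 and 1.37 to 2.87 TPM that did not overlap. Asl (ENSMUSG00000025533.15, chr5:130011258-130029247, minus strand) had 6.28 and 3.53 TPM, with intervals of 5.68 to 8.70 and 2.99 to 5.68 TPM that met at their ends. Ass1 was 0.712 and 0.473 times Asl, lower in both libraries. The Ass1 value is uncertain, because 43.1% of its 31-base words (1025 of 2378) also occur in the processed pseudogene Gm5424 on chromosome 10. The quantifiers left few counts there: RSEM assigned it 0 and 4.91 counts, against 152 and 53.1 for Ass1, and kallisto assigned it none.

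Arginase RNA was scarce. Arg2 (ENSMUSG00000021125.6, chr12:79130777-79156301, plus strand) had 0.53 and 0.73 TPM, from 17.2 and 20.8 expected counts, and its deposited intervals overlapped (0.297 to 0.790 and 0.432 to 1.05 TPM). Of its 31-base words, 18.2% lie in reverse complement in Vti1b, the neighbour whose 3′ end it meets, and 5.36% in the antisense gene Gm48780. Vti1b had 315 and 148 counts and Gm48780 had 22 and 30, and without the strand reads in the shared stretches cannot be told apart.

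Arg1 (ENSMUSG00000019987.9, chr10:24915221-24927484, minus strand) was the lowest of the 7, with 0.03 and 0.10 TPM. These are 1 expected count in replicate 1 (exact 95% Poisson interval 0.0253 to 5.57) and 3 in replicate 2 (0.619 to 8.77), intervals that cover counting error only. Kallisto assigned it 8 and 18 counts. At this depth the libraries cannot be told apart for Arg1. Other genes used as markers of alternative activation were not uniformly low: Mrc1, the mannose receptor, had 41.4 and 46.6 TPM, Il4ra, a subunit of the interleukin-4 receptor, 63.3 and 24.7 TPM, and Chil3 2.68 and 1.70 TPM. Retnla (0 and 0.11 TPM) and Cd163 (0.03 and 0.11 TPM) were near 0, so 3 of 5 such markers reached 1 TPM in both libraries. In bulk RNA, fewer cells with a transcript and less of it per cell cannot be told apart.

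Counted together, 5 of the 7 genes reached 1 TPM in both libraries, against 39.9% of the 22028 protein-coding genes. Gch1 alone reached 10 TPM in both, against 14.9% of protein-coding genes. Ordered by mean TPM the genes ran Gch1 (35.7 ± 13.0 TPM, SD, n = 2), Nos2, Asl, Ass1 (3.07 ± 1.98), Slc7a2 (2.29 ± 0.396), Arg2 (0.630 ± 0.141) and Arg1. Of the 6 neighbouring pairs in this order, 3 were separate, in that the lower library of one gene lay above the higher library of the next: Gch1 over Nos2, Slc7a2 over Arg2, and Arg2 over Arg1. For the last of these the deposited intervals overlapped within each library. Nos2 and Asl did not differ beyond their spread and exchanged places between the libraries, as did Ass1 and Slc7a2; Asl stood above Ass1 in each library, but their ranges overlapped. Kallisto gave lower TPM than RSEM in both libraries for 5 of the 7 genes (not for Nos2 or Arg1) and placed Slc7a2 (1.13 and 1.61 TPM) before Ass1 (1.60 and 0.972 TPM), the only neighbouring pair of 6 that was not separate there. With it, 4 of the 7 genes reached 1 TPM in both libraries. The share of all protein-coding genes was computed from RSEM only, so this count has no background beside it.

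**Figure D2:**
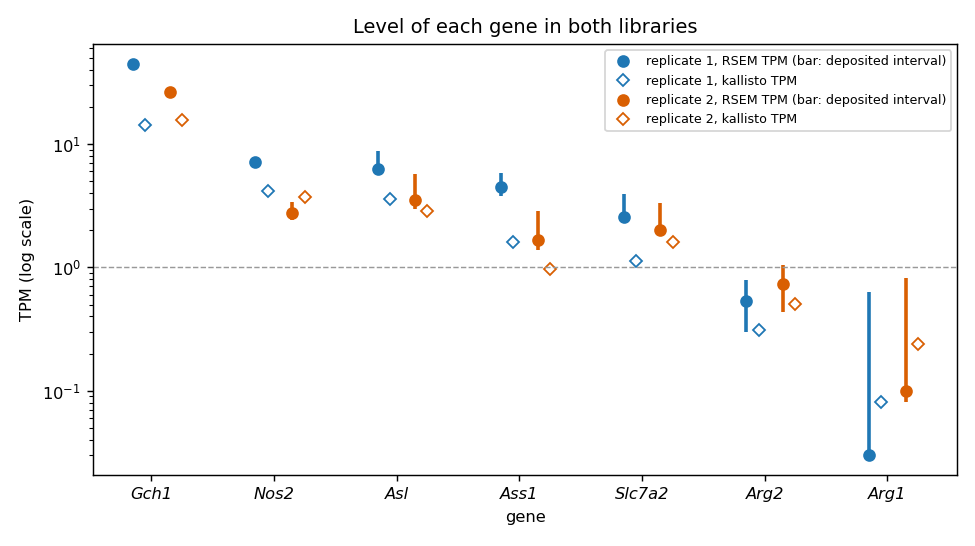
Level of each gene in TPM (y axis, log scale) in both libraries, ordered by mean RSEM TPM along the x axis; filled circles are RSEM values with their deposited intervals as bars, open diamonds are kallisto values, and the dashed line is 1 TPM. Gch1 stands above the other genes in each library, the values of Nos2, Asl, Ass1 and Slc7a2 overlap, and Arg2 and Arg1 lie below 1 TPM.

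The nitric oxide side exceeded the arginase side in each library. Nos2 was 13.5 times Arg2 in replicate 1 and 3.79 times in replicate 2 by RSEM TPM, and 13.3 and 7.42 times by kallisto. The direction was the same in all 4 values, while the size differed between the replicates. Nos2 was 2.79 and 1.38 times Slc7a2. RNA in the nucleus is not enzyme, and no protein or nitric oxide was measured.

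The transcripts of Gch1 divided nearly evenly. Gch1-202, annotated as a retained intron, received 1572 of the gene's 3384 expected counts in replicate 1 (46.5%) and 899 of 1799 in replicate 2 (49.97%). Kallisto gave 45.7% and 51.1%. Per length, the share was 40.3% and 43.7% of the gene's TPM in RSEM and 39.5% and 44.9% in kallisto, so replicates and quantifiers lay within a few percentage points of each other. For comparison, among the 2291 nuclear-encoded protein-coding genes of 10 TPM or more with an annotated retained-intron transcript, the median share in such transcripts was 12.0% and 14.1% of counts and 23.1% and 25.6% of TPM (27.3% and 30.1% of TPM in kallisto). A share as large as that of Gch1 was found for 9.996% and 11.8% of them by counts, and for 21.7% and 23.0% by TPM (29.2% and 26.1% in kallisto). Whether the reads assigned to Gch1-202 came from a stable transcript or from unspliced precursor was not tested.

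Nos2 has 3 annotated transcripts and none is a retained intron. RSEM assigned all 753 and 260 counts to the full-length Nos2-201 of 4192 bases. Kallisto gave Nos2-201 83.1% and 81.9% of counts but 56.7% and 52.7% of TPM. The remainder of its TPM was mostly Nos2-202, a transcript of 648 bases without coding sequence, with 33.5% and 38.3% of TPM from 59.5 and 41.6 counts. The quantifiers thus differ on the short form, whereas for each of them the replicates were alike.

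For Slc7a2 the share of each alternative exon depended on the quantifier, the library and the unit. RSEM placed 60.1% of counts in transcripts with the 137-base exon in replicate 1 (248 counts, with 164 in those with the 140-base exon) and 100% in replicate 2 (293 counts and 0). Kallisto placed 35.3% and 47.0% of counts there (246 and 288 counts), with 450 and 324 counts in transcripts with the 140-base exon. Per length, the 137-base exon held 57.6% and 100% of the gene's TPM in RSEM and 40.9% and 56.9% in kallisto. The transcripts also differ in their ends: Slc7a2-201 and Slc7a2-203 are 7910 and 7626 bases long, Slc7a2-202 and Slc7a2-204 are 3677 and 3681, so these shares do not come from the exon alone. The 0 in replicate 2 is an estimate that divides shared reads and was not met in kallisto, in which both exons were present in each library. In replicate 1 the quantifiers thus put opposite exons ahead, and in replicate 2 both put the 137-base exon ahead by TPM, though not by kallisto counts.

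Asl has 8 annotated transcripts, and in RSEM the one that led changed with the library. In RSEM, Asl-205 held 43.9% of TPM in replicate 1 and 2.55% in replicate 2, while Asl-202 held 20.9% and 50.7%. Asl-201 held 19.1% and 0%, and Asl-204, a processed transcript without coding sequence, 0% and 29.2%. The retained-intron form Asl-208 held 9.09% and 17.6%, and 19.6% and 24.2% in kallisto. Asl-203 passed 10% only in kallisto, with 2.69% and 14.7%, and so did Asl-206, with 12.2% and 8.85%. With 236 and 117 RSEM counts spread over overlapping models, no form of Asl led in both libraries in RSEM. In kallisto Asl-208 was highest by TPM in both libraries, but by little. There Asl-204 held 19.5% and 21.8% of TPM, and Asl-201 19.4% and 5.92%. Ass1 was simpler: its coding transcript Ass1-201 held 83.0% and 89.8% of TPM in RSEM. Ass1-203, a retained intron, held 4.03% and 10.2% there, from only 1.2 and 1 expected counts, and 9.33% and 0% in kallisto. Arg2 has 1 transcript, and the RSEM counts of Arg1 were all on its coding form Arg1-201, while kallisto put 34.4% and 12.8% of Arg1 TPM on the retained-intron form Arg1-203, from 1.34 and 1 counts.

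**Figure D3:**
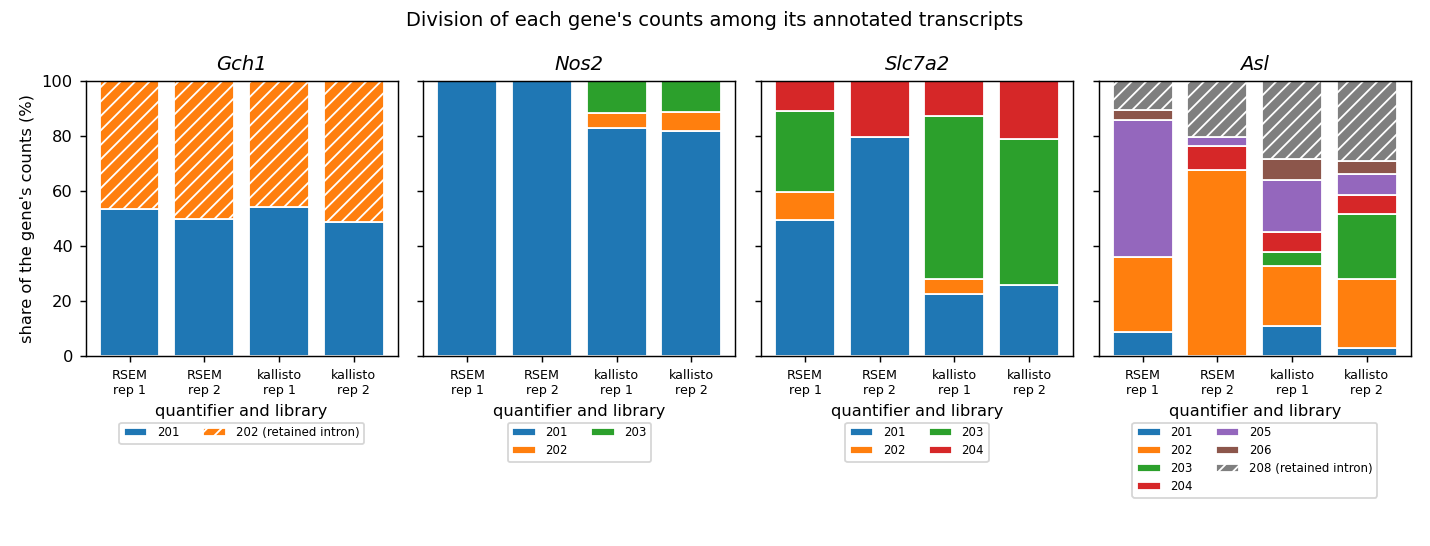
Share of each gene's counts (y axis, percent) assigned to its annotated transcripts for Gch1, Nos2, Slc7a2 and Asl; the bars along the x axis are RSEM and kallisto in replicates 1 and 2, colours are transcripts by number and hatching marks retained introns. The Gch1 bars are alike across all 4 estimates (45.7% to 51.1% in the retained-intron form), whereas the Slc7a2 and Asl bars change with the quantifier or the library.

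The replicates were then compared gene by gene. On TMM-normalised counts Nos2 was 1.89-fold higher in replicate 1 (log2 ratio of replicate 2 to replicate 1 -0.92) and Ass1 1.88-fold higher (-0.91). Asl and Gch1 were closer, at -0.40 and -0.30, and Slc7a2 stood at 0.12. Arg2 had a log2 ratio of 0.92, on 17 and 21 rounded counts, but of only 0.19 on kallisto counts (37.3 and 39.3). Arg1 did not reach a mean of 10 counts and has no ratio here. Of the 6 genes that reached this mean, 0 were over 2-fold higher in replicate 1, where 4.45% of all 14052 such genes were, and 0 were over 2-fold higher in replicate 2, where 4.49% were. These are comparisons of 2 libraries of 1 group, so no test was made. In 4 of the 6 genes the ratio was below 0, with a median of -0.35, against a median of 0.00098 and a central 95% range of -1.27 to 1.26 over all 14052 genes. The coefficient of variation beyond counting error, which edgeR terms biological, was 22.7% over those genes. Here it may be technical, since the labels do not name separate animals and the RNA input differed. Without the scaling, on TPM itself, 5 of the 6 genes were lower in replicate 2, as were 80.5% of the 14052 genes. Nos2 and Ass1 were then over 2-fold higher in replicate 1, where 14.3% of those genes were, and 0 of the 6 were over 2-fold higher in replicate 2, where 1.9% were.

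**Figure D4:**
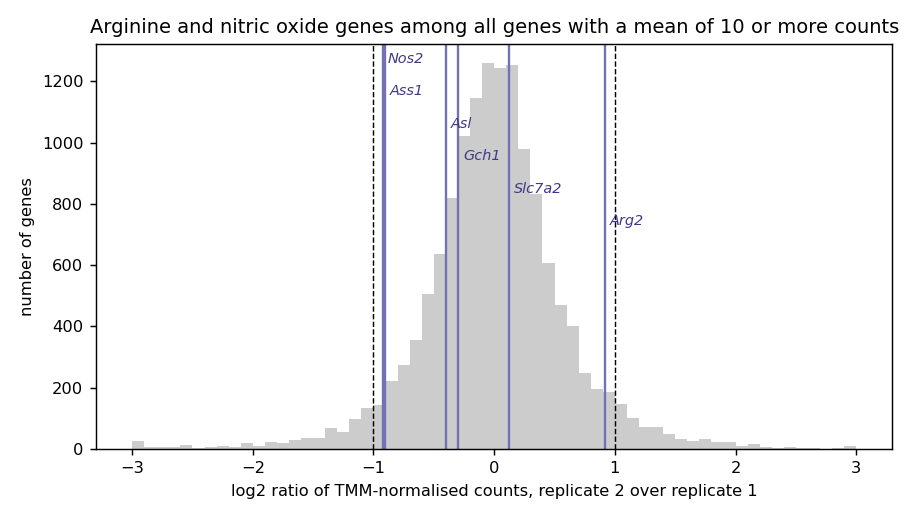
Histogram of the log2 ratio of TMM-normalised counts, replicate 2 over replicate 1 (x axis), over the 14052 genes that average 10 or more counts (y axis, number of genes; ratios beyond the axis are counted in the end bins), with a vertical line for each of the 6 genes that reached it and dashed lines at 2-fold. All 6 lines fall between the dashed lines; Nos2 and Ass1 are nearest to the left one and Arg2 to the right one.

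The surrounding pathway was read from a list of 53 other genes, of which 52 matched a gene row by symbol. In both libraries 31 of them were at 1 TPM or more and 7 at 10 TPM or more, and 8 were below 0.1 TPM. Over all protein-coding genes the shares were 39.9%, 14.9% and 43.4%; the count at 10 TPM is near that background. Those named below beyond the highest and the undetected members of each group were picked after their values were seen. Of the 42 that averaged 10 or more counts, 1 was over 2-fold apart: Slc7a3, a further arginine transporter gene, with a log2 ratio of 1.10 from 15 and 21 counts, where 4.49% of all genes were over 2-fold higher in replicate 2. Of the 42, 25 had a ratio below 0, with a median of -0.07, against a median of 0.00098 over all genes of 10 or more counts. With that median about as many of all genes lie below 0 as above it, so the 25 are not read as a lean.

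Of the 3 nitric oxide synthase genes, Nos2 alone reached 1 TPM. Nos1, the neuronal enzyme, had 0 expected counts in both libraries (kallisto 0.0948 and 0.215 TPM), and Nos3, the endothelial enzyme, had 1 and 0; a count of 0 allows up to 3. Of the 7 synthases and regulators besides Nos2, 2 reached 1 TPM, led by Nosip, an interaction partner of nitric oxide synthase, at 4.85 and 3.03 TPM. Ddah1, which clears methylated arginines that inhibit the synthases, also had 0 counts.

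Among 8 transport genes, 5 reached 1 TPM and 3 reached 10 TPM. Slc3a2, the heavy chain shared by several amino acid transporters, had 211 and 128 TPM. Slc7a1, the constitutive cationic amino acid transporter, had 18.2 and 13.6 TPM, above Slc7a2 in both libraries, and Slc7a7, which exports arginine together with Slc3a2, had 17.5 and 10.2 TPM. The liver part of the urea cycle was not detected: Cps1, Otc and Nags had 0 counts in both libraries. Of that group of 6, Gatm, the first enzyme of creatine synthesis from arginine, was the highest at 6.40 and 2.67 TPM and the one gene above 1 TPM in both.

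The group of ornithine use and polyamine genes, few of which act on ornithine itself, had the highest summed level of the groups (413 and 249 TPM). In this group 10 of 12 reached 1 TPM and 4 reached 10 TPM. Sat1, which acetylates spermidine and spermine, had 259 and 153 TPM, the larger part of that sum in each library. Azin1 and Oaz1, which inhibit and carry out antizyme control of ornithine decarboxylase, had 56.6 and 35.0 TPM and 35.1 and 18.5 TPM. Odc1, ornithine decarboxylase itself, had 13.3 and 14.2 TPM, above both arginases in each library. Of the 5 matched proline and glutamate genes, 2 reached 1 TPM, with Aldh18a1, which starts proline synthesis from glutamate, highest by mean RSEM TPM at 1.86 and 1.35 TPM. By mean kallisto TPM, Pycr1 (2.35) and Prodh (2.07) stood above Aldh18a1 (0.901).

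In the tetrahydrobiopterin group, 4 of 7 reached 1 TPM. Pts, the enzyme after Gch1, had 9.76 and 7.92 TPM, and Spr, which completes the cofactor, had 1.60 and 1.46 TPM, so Gch1 stood above both later steps in each library. Qdpr, which recycles the cofactor, had 4.68 and 3.31 TPM. Gchfr, the feedback regulator of the Gch1 enzyme, had 0 counts in both. The 7 protein arginine methyltransferases on the list were all at 1 TPM or more, with Prmt1 highest by mean RSEM TPM (4.40 and 3.40 TPM). Prmt3 (3.45 and 3.94 TPM) was above Prmt1 in replicate 2, and in both libraries in kallisto.

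**Figure D5:**
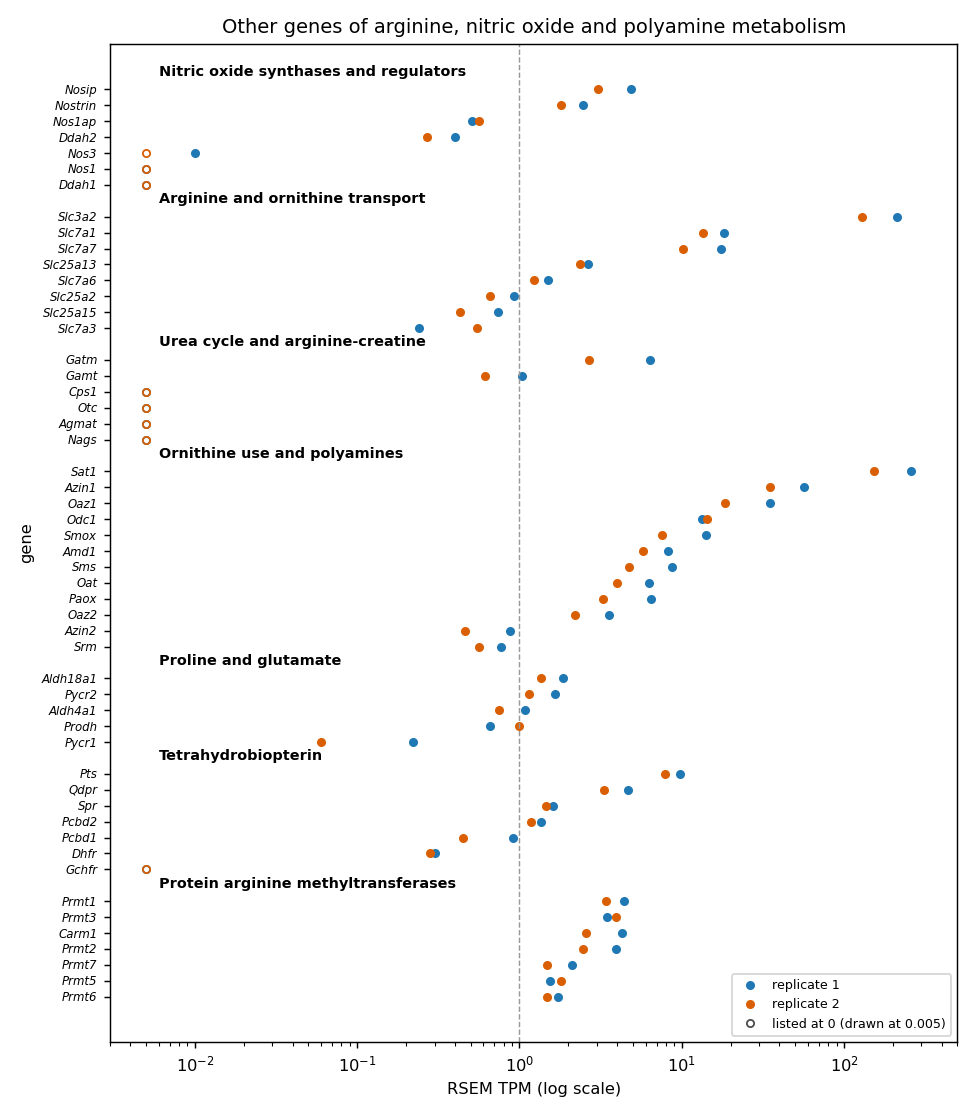
TPM (x axis, log scale) of the 52 matched genes of arginine, nitric oxide, tetrahydrobiopterin and polyamine metabolism (y axis, by group) in replicate 1 (blue) and replicate 2 (orange); open circles are values listed at 0, drawn at 0.005, and the dashed line is 1 TPM. Slc3a2 and Sat1 lie farthest to the right, and the 0 values fall on Nos1, Nos3, Ddah1, Gchfr and the liver urea cycle genes with Agmat.

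Promoter sequence from RefSeq (GRCm38.p6), 250 bases before to 50 after the start, was matched for 2 of the 7 genes, Gch1 and Ass1. Searched on both strands, the kappaB consensus, the sequence pattern bound by NF-kB, was present in the Gch1 window and not in the Ass1 window, and in 4.51% of 32851 promoters (1480). The interferon-stimulated response element was in neither, and in 3.44% of promoters (1131). These letters are a description of the windows and no binding was measured.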

How the data were processed

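The authors' deposited tables hold, per library, genes and transcripts with the columns of RSEM and transcripts with the columns of kallisto; per the deposited readme files the former derive from alignments to the transcriptome and the latter from reads, on mm10 with GENCODE M21. Neither aligner nor tool versions nor strand setting is given in the sources used here. The deposited values are, per the file headers, expected counts (estimated counts, which need not be whole) and TPM, with a posterior mean TPM and bounds of an interval of unstated level. Rows that name no gene held 1.19% and 0.215% of expected counts and were left out of the gene totals.

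Kallisto values were summed per gene by gene ID. Symbols, coordinates and exons come from the M21 annotation. Expected counts were rounded, filtered at a mean of 10, and scaled by TMM in edgeR 4.0.16 (R 4.3.3); the other alternatives included DESeq2 1.42.0 size factors. Python 3.11.15 with pandas 2.3.3, scipy 1.17.1 and numpy 2.4.6 did the rest. Only the scaling by TMM and the ratio between libraries were tested on simulated counts. Wilson and Poisson intervals are at 95% and cover only counting error, there being no molecular identifiers. Log2 levels use a pseudocount of 0.1 TPM.

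All 7 genes were named, with transcripts holding 10% or more of a gene's TPM in either library and quantifier, and in each pathway group the highest member and at most 3 below 0.1 TPM. Genes, lists and rules were chosen with earlier results of these data known. With 1 group, no test between conditions was possible.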

Additional observations from a re-analysis of the deposited data

How the results depend on the processing

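Alternatives were kallisto in place of RSEM, the posterior mean TPM, TPM rescaled over nuclear-encoded protein-coding genes, other scalings of counts, no filter on counts, counts in place of TPM, a pseudocount of 1 TPM, and each library alone. Genes of the 7 at 10 TPM or more in both libraries numbered 3 on the rescaled TPM, against 1. The rescaling raises every TPM above 0, so more genes can pass a fixed threshold, and the 3 say nothing of these genes in particular. Genes over 2-fold apart between the replicates, 0 by TMM, numbered 2 on TPM without centring (Nos2 and Ass1), 1 on kallisto counts (Arg1) and 1 with no filter on counts (Arg1). The log2 difference of Gch1 and Nos2 was 1.90 in kallisto, against 2.92, and 2.63 to 3.21 with each library alone. The mean share of Gch1-202, 42.0% of TPM, was 48.2% of expected counts and 48.4% of kallisto counts, the latter an alternative chosen after seeing the data, and 40.3% to 43.7% with each library alone. The mean share of Slc7a2 in transcripts with the 137-base exon, 78.8% of RSEM TPM, was 48.9% of kallisto TPM and 41.2% of kallisto counts, and 57.6% to 100% with each library alone. The share of Nos2 in Nos2-201, 100% in RSEM, was 54.7% of kallisto TPM and 82.5% of kallisto counts. For each of these the cause was not tested. In all, 31 summary values kept within 1.5 times or 1 SD, some of them given above, such as the Slc7a2 share in kallisto TPM. Among them were the genes at 1 TPM or more (4 to 6, against 5) and the pathway genes at 1 TPM or more (26 to 42, against 31). The share of all protein-coding genes at 1 or 10 TPM was not computed for the alternatives, so these counts have no background. Mean levels of single genes moved by less than 1 SD in 22 cases and by more in 13. Among these was Gch1, at 14.95 TPM in kallisto against 35.7. Each of the 7 genes was among them on the rescaled TPM, which raises all levels. With 2 libraries, 1 library alone always lies within 1 SD of their mean. Such cases among the mean levels, the log2 difference and the transcript shares could therefore not count as moved, and they say nothing of stability. Arg1, with 1 and 3 counts, is limited by depth. No paired analysis was possible because the series has 1 group.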
